A study of Homo sapiens with 40 samples.

Results

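NF-kB target genes that encode chemokines, cytokines and survival factors were followed through the knockdown of CASP8AP2, NPAT and HINFP in a tumor and a normal cell line. The genes were IL8 (ENSG00000169429_at, now called CXCL8), CXCL1 (ENSG00000163739_at), CXCL2 (ENSG00000081041_at), CCL2 (ENSG00000108691_at), IL6 (ENSG00000136244_at), IL1A (ENSG00000115008_at), IL1B (ENSG00000125538_at), BIRC3 (ENSG00000023445_at), TNFAIP3 (ENSG00000118503_at) and NFKBIA (ENSG00000100906_at). They were chosen by name with earlier results of these arrays known, and they are 10 of the 22069 genes measured. No contrast and no threshold on a value is part of that choice. An adjusted p below compares a difference with the spread between arrays, and it is no independent evidence for genes chosen in this way.

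NF-kB is a family of dimeric transcription factors that inhibitor proteins hold in the cytoplasm of resting cells. Signals such as tumor necrosis factor, interleukin-1 or DNA damage activate a kinase complex that marks the inhibitor for destruction, and the freed dimer enters the nucleus and switches on its targets. Among these are chemokines and cytokines that call in and activate immune cells, proteins that protect the cell from death, and inhibitors that turn the pathway off again, NFKBIA and TNFAIP3 being textbook examples of such feedback.

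The arrays came from U2OS, an osteosarcoma line, and hTERT-RPE1, normal retinal pigment epithelium immortalized by telomerase. Each line was transfected with 15 nM of a pool of 4 siRNAs against CASP8AP2, NPAT or HINFP, which are regulators of histone genes, or with a negative control siRNA, and no group was left untransfected. On days 1 and 2 there were 3 arrays each for control and CASP8AP2 siRNA in each line, and on day 3 there were 2 arrays each for control, CASP8AP2, NPAT and HINFP siRNA, which makes 16 groups and 40 arrays. The labels call the arrays of a group biological replicates, and according to the methods the duplicates were transfected in parallel, so p-values measure the spread within such an experiment, and the lines were grown in different media, so line and medium cannot be told apart.

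Values are log2 intensities, so a difference of 1 is a doubling, and they are relative to the other genes of an array because the array means were nearly equal (6.00 to 6.05 on days 1 and 2, and 5.85 to 5.88 on day 3). The 24 arrays of days 1 and 2 and the 16 of day 3 were tested apart, and no level was compared between these sets. A gene was called at a limma adjusted p under 0.05, and errors are standard errors (SE) of the fit or standard deviations (SD). The targeted transcripts were called lower in all 10 comparisons, with 30.1% to 59.1% left. Less was left in U2OS than in hTERT-RPE1 cells each time. For CASP8AP2 it was 40.6%, 30.1% and 44.3% against 55.5%, 59.1% and 58.7% on days 1 to 3. For NPAT it was 33.3% against 40.3%, and for HINFP 32% against 48.4%. In the differences of effect between lines below, line and depth of knockdown therefore cannot be told apart. Of 22 markers of cell types, 7 could be matched to a name. The osteoblast marker RUNX2 was lower in control U2OS than in control hTERT-RPE1 cells on every day (by log2 differences of -2.23, -1.82 and -1.80), and so was IBSP, another osteoblast marker, on days 1 and 2 (-0.44 and -0.24), which is the opposite of what the labels would give. Of the pigment epithelium markers, RLBP1 was lower in U2OS cells on day 3 (-0.23, adjusted p 0.0385), as the labels would give, and it was not called on days 1 and 2, nor was BEST1 on any day. IBSP lay between 3.45 and 4.44 and BEST1 and RLBP1 between 3.49 and 4.67 over all arrays of both lines. Each sample is a mix of many cells, so fewer cells that express a gene and less RNA per cell cannot be told apart.

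The promoters of the genes on which the results below turn are shown first, because the members are known for a common regulator. RefSeq promoter entries (GRCh38.p14) were matched for 9 of the 10 members, IL8 through its current name, and CCL2 had no match. The 250 bases before each start were searched on both strands for GGNNNTTCC, an open form of the sequence that NF-kB dimers bind. In some places a match on one strand overlaps a match on the other. The motif was found in 7 of the 9 members (IL8, CXCL1, CXCL2, IL6, BIRC3, TNFAIP3 and NFKBIA), in neither of the entries for IL1A and not in IL1B, against 17.1% of all 35116 promoters of the same length. The members were chosen by name as NF-kB target genes, so their share is no independent evidence. Capitals mark the matched bases, and each sequence reads 5′ to 3′ on the strand of its gene.
IL8, chr4:73740319-73740568, plus strand: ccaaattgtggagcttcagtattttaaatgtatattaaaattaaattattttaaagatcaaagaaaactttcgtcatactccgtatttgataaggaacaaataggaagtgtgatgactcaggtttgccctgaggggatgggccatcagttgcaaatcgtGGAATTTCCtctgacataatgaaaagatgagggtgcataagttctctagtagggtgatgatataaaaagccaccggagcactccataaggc
IL6, chr7:22726950-22727199, plus strand: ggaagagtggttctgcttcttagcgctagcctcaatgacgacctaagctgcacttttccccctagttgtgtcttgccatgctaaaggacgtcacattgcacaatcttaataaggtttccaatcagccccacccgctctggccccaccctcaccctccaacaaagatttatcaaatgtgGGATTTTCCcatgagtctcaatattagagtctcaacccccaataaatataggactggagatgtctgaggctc
IL1A, chr2:112784494-112784743, minus strand: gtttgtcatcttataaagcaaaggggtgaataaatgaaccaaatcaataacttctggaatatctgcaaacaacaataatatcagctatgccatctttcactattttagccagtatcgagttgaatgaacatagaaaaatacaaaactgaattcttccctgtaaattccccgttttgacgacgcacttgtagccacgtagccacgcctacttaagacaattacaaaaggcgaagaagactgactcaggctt
BIRC3, chr11:102317234-102317483, plus strand: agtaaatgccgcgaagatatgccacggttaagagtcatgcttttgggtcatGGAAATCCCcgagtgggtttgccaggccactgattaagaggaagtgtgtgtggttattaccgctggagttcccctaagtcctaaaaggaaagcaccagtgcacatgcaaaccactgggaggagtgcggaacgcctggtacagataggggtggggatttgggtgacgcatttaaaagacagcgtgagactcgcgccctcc
TNFAIP3, chr6:137867009-137867258, plus strand: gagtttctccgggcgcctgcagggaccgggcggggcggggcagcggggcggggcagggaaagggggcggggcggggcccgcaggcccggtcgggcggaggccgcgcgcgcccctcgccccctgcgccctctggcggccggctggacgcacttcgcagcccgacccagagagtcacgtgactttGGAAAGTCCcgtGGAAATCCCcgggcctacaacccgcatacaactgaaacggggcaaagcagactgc
The match lay 91 to 83 bases before the start in IL8 and 72 to 64 in IL6. In BIRC3 it lay on the opposite strand 199 to 191 bases before the start, and TNFAIP3 held a pair of matches on the opposite strand, from 67 to 59 and from 55 to 47. IL1A is printed because it had the largest rise of the 10 genes and has no match in this window. A match describes letters and was not tested for binding.

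The members that were called differed from comparison to comparison. In U2OS cells CASP8AP2 siRNA raised 3 members on day 1, when 5.87% of all genes were called (2.86% higher and 3.01% lower). On day 2 it raised 5 and lowered 1, against 24.9% of all genes (11.8% higher and 13.1% lower). On day 3 it lowered 1 and raised 0, against 18.9% (7.91% higher and 11% lower). The median log2 difference of the 10 members was 0.03, 0.31 and 0.02 on these days, and that of all genes was 0.00, -0.01 and 0.02. In hTERT-RPE1 cells the same siRNA gave 0 called on day 1 (0.793% of all genes, 0.449% higher and 0.344% lower). An unadjusted p under 0.05 was reached by 3 members (CXCL1, CCL2 and TNFAIP3), and the share of all genes at that threshold was not counted. CASP8AP2 siRNA raised 2 members on day 2 (6.4% of all genes, 4.25% higher and 2.16% lower) and lowered 1 on day 3 (6.15%, 3.62% higher and 2.54% lower). Its medians over the members were -0.04, 0.08 and -0.13. On day 3 the 1 member of 10 called with CASP8AP2 siRNA was a share near that of all genes in hTERT-RPE1 cells and below it in U2OS cells.

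After NPAT and HINFP siRNA on day 3 every called member was lower. NPAT siRNA lowered 3 of 10 in U2OS cells, where 8.13% of all genes were called (3.84% higher and 4.29% lower), and 3 of 10 in hTERT-RPE1 cells (5.04%, 2.37% higher and 2.67% lower). HINFP siRNA lowered 3 of 10 in U2OS cells (9.43%, 4.59% higher and 4.84% lower) and 4 of 10 in hTERT-RPE1 cells (4.15%, 2.13% higher and 2.01% lower). The median over the members was -0.32 and -0.43 for NPAT siRNA in U2OS and hTERT-RPE1 cells, and -0.11 and -0.34 for HINFP siRNA, while the median of all genes lay between -0.03 and -0.00. All these comparisons within a line and day use the same control arrays. Over the 10 comparisons IL8 was called 6 times, IL1A and BIRC3 4 times each, IL1B and TNFAIP3 3 times each, IL6 and NFKBIA 2 times each, CCL2 and CXCL1 in 1 comparison each and CXCL2 in 0.

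**Figure D1:**
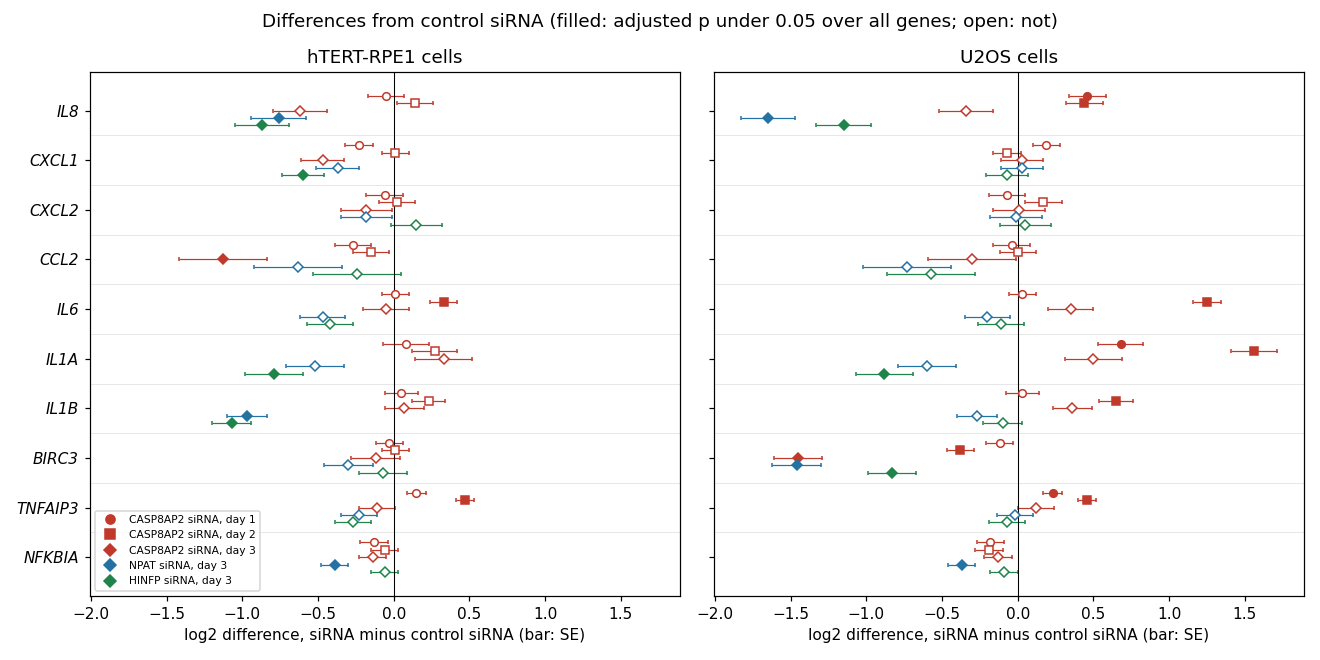
Log2 difference of each member from control siRNA (horizontal axis, bars are SE of the limma fit) in hTERT-RPE1 cells (left) and U2OS cells (right), with 1 marker for each siRNA and day; filled markers have an adjusted p under 0.05 over all genes. CASP8AP2 siRNA raised IL6 by 1.25 and IL1A by 1.56 in U2OS cells on day 2, and on day 3 BIRC3 lay 1.45 and 1.46 below control after CASP8AP2 and NPAT siRNA in U2OS cells.

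IL8 encodes interleukin-8, a chemokine that draws neutrophils. In U2OS cells on day 1 its log2 level was 8.29, 8.75 and 8.54 on the control arrays and 9.01, 8.96 and 8.98 after CASP8AP2 siRNA. On day 2 it was 9.20, 9.56 and 9.37 with control and 9.77, 9.86 and 9.83 with CASP8AP2 siRNA. The groups did not overlap on either day, and IL8 rose by 0.46 on day 1 (SE 0.12, adjusted p 0.0257) and by 0.44 on day 2 (SE 0.12, adjusted p 0.00857). The day 1 call was lost without control replicate 1 (0.34, adjusted p 0.17) and without control replicate 3 or any CASP8AP2 replicate (adjusted p 0.0624 to 0.0843), and the day 2 call without control replicate 1 (0.36, adjusted p 0.0592). In hTERT-RPE1 cells the same differences were -0.05 (95% interval -0.30 to 0.20) and 0.14 (-0.11 to 0.39).

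On day 3 IL8 was lower in every treated group of both lines than in its control. The U2OS values were 10.10 and 10.04 with control, 9.93 and 9.53 with CASP8AP2, 8.61 and 8.22 with NPAT and 8.82 and 9.02 with HINFP siRNA. No treated array reached the lower control array. NPAT siRNA lowered IL8 to 31.8% of control (log2 difference -1.65, SE 0.18, adjusted p 0.00015) and HINFP siRNA to 45.1% (-1.15, adjusted p 0.00158), and the difference after CASP8AP2 siRNA was not called (-0.34, adjusted p 0.226). CASP8AP2 siRNA left more IL8 than NPAT siRNA (1.31, SE 0.18, adjusted p 0.00151) and than HINFP siRNA (0.81, adjusted p 0.0208), and NPAT and HINFP siRNA differed by -0.50 (adjusted p 0.165). Neither CASP8AP2 contrast was called when the arrays of its own groups were fitted alone (limma adjusted p 0.0572 against NPAT and 0.111 against HINFP siRNA). The difference between CASP8AP2 and HINFP siRNA lost its call without CASP8AP2 replicate 1 (0.61, adjusted p 0.204), HINFP replicate 1 (0.71, adjusted p 0.122) or HINFP replicate 2 (0.91, adjusted p 0.0612).

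In hTERT-RPE1 cells on day 3 IL8 stood at 8.50 and 8.98 with control, 8.28 and 7.96 with CASP8AP2, 7.96 and 8.02 with NPAT and 7.88 and 7.87 with HINFP siRNA. The control arrays were the highest, and they differed from each other more than the arrays of any treated group. The falls were -0.76 with NPAT siRNA (SE 0.18, adjusted p 0.0301) and -0.87 with HINFP siRNA (adjusted p 0.019), and the difference with CASP8AP2 siRNA was -0.62 (adjusted p 0.0603), called without control replicate 1 (-0.86, adjusted p 0.0275). Without control replicate 2 the NPAT difference was -0.52 (adjusted p 0.184) and the HINFP difference -0.63 (adjusted p 0.11), and neither call held without either array of its own siRNA (adjusted p 0.0889 to 0.178). The effect in U2OS minus that in hTERT-RPE1 cells was not called for IL8 with any siRNA (-0.89 with NPAT, adjusted p 0.0731, and -0.28 with HINFP, adjusted p 0.636). The NPAT value passed with all 40 arrays in 1 fit (-0.89, adjusted p 0.0146) and without hTERT-RPE1 control replicate 2 (-1.13).

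**Figure D2:**
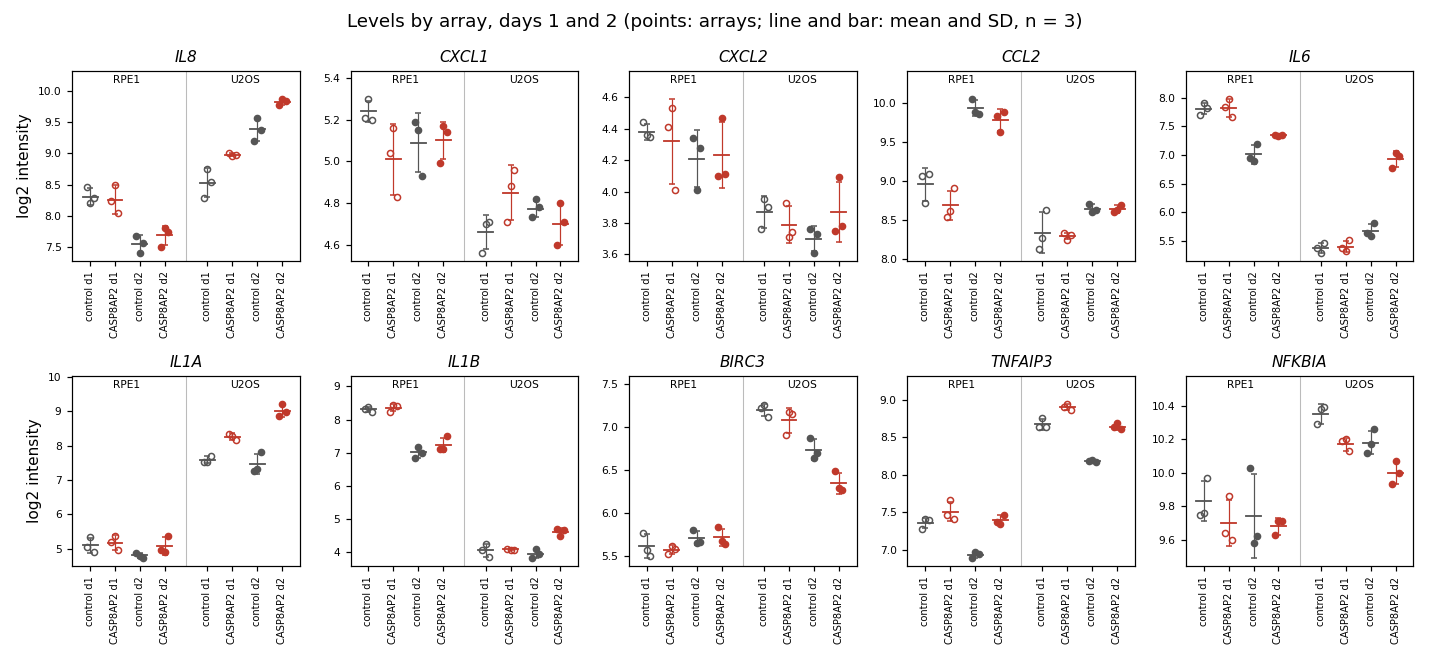
Log2 intensity of each member on days 1 and 2 (vertical axis, its own scale in each panel) by line, siRNA and day; points are arrays, and the line and bar are the mean and SD of 3 arrays. In U2OS cells on day 2 the CASP8AP2 arrays of IL6, at 6.77 to 7.03, all sit above the control arrays, at 5.58 to 5.82, and in IL1A they sit at 8.85 to 9.21 above 7.25 to 7.80.

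CXCL1 and CXCL2 are chemokines of the same family as IL8, and they are close paralogs, and how the probes separate them is not given in the sources used here. CXCL1 was called in 1 comparison. In hTERT-RPE1 cells on day 3 its control arrays were at 5.67 and 5.49 and its HINFP arrays at 4.80 and 5.17, a fall of 0.60 on the log2 scale (SE 0.14, adjusted p 0.0338). The groups did not overlap, but the call was lost without HINFP replicate 1 (-0.41, adjusted p 0.26), control replicate 1 (-0.51, adjusted p 0.132) or control replicate 2 (-0.69, adjusted p 0.057). CXCL1 in U2OS cells stayed between 4.56 and 5.02 on all arrays. CXCL2 was called against control in 0 of the 10 comparisons, with log2 differences between -0.18 and 0.17 and no unadjusted p under 0.05. Its U2OS arrays on day 3 lay between 3.13 and 3.55, below 3.72, the level under which the lowest 25% of genes fell on day 3.

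CCL2 is the chemokine that draws monocytes. In hTERT-RPE1 cells on day 3 it was at 11.39 and 11.30 with control and at 10.06 and 10.37 with CASP8AP2 siRNA. The treated arrays lay well below, at 45.7% of control (log2 difference -1.13, SE 0.29, adjusted p 0.0364). Leaving out any one of the 4 arrays ended the call (adjusted p 0.0989 to 0.182, with differences from -1.29 to -0.98). With NPAT siRNA the arrays were at 10.63 and 10.79 and with HINFP siRNA at 11.24 and 10.96, differences of -0.63 and -0.24 that were not called. In U2OS cells the day 3 control arrays stood at 9.12 and 9.79, and no difference from control was called on any day, with differences between -0.73 and -0.00.

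IL6 is a cytokine of the acute phase response. In U2OS cells on day 1 its control arrays were at 5.38, 5.29 and 5.46 and its CASP8AP2 arrays at 5.38, 5.32 and 5.51, a difference of 0.03 (95% interval -0.17 to 0.22). On day 2 the control arrays were at 5.64, 5.58 and 5.82 and the CASP8AP2 arrays at 6.77, 7.03 and 6.99. The day 2 groups were far apart, a rise of 1.25 (SE 0.09, 95% interval 1.05 to 1.44, adjusted p 2.82e-09) or 2.37-fold. The difference of the effect between the days, 1.22 (SE 0.13, adjusted p 4.92e-06), was called. In hTERT-RPE1 cells on day 2 the control arrays were at 6.95, 6.89 and 7.19 and the CASP8AP2 arrays at 7.34, 7.33 and 7.35, a rise of 0.33 (SE 0.09, adjusted p 0.0374). That smaller rise lost its call without any array of the compared groups other than control replicate 3 (adjusted p 0.0833 to 0.142). The rise was larger in U2OS than in hTERT-RPE1 cells by 0.91 (SE 0.13, adjusted p 9.46e-05). On day 3 IL6 differed from control by 0.35 in U2OS cells after CASP8AP2 siRNA (6.02 and 6.29 against 5.81 and 5.80, adjusted p 0.123), and the other differences lay between -0.47 and -0.05. None of the IL6 differences from control on day 3 was called. With all 40 arrays in 1 fit, those in hTERT-RPE1 cells with NPAT (-0.47, adjusted p 0.0187) and HINFP siRNA (-0.42, adjusted p 0.0393) passed.

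IL1A encodes interleukin-1 alpha, an alarm cytokine that itself can activate NF-kB. On day 1 U2OS cells had it at 7.53, 7.53 and 7.70 with control and 8.35, 8.29 and 8.16 with CASP8AP2 siRNA. On day 2 it was at 7.25, 7.33 and 7.80 with control and 8.85, 9.21 and 8.99 with CASP8AP2 siRNA. The groups were apart on both days, by 0.68 on day 1 (SE 0.15, adjusted p 0.00638) and 1.56 on day 2 (SE 0.15, adjusted p 7.18e-08), or 1.6-fold and 2.95-fold. The day 2 effect exceeded that of day 1 by 0.88 (SE 0.21, adjusted p 0.0123). In hTERT-RPE1 cells the differences were 0.08 on day 1 and 0.27 on day 2, neither called, with day 2 arrays at 4.95, 4.89 and 5.37 against 4.88, 4.79 and 4.72. Between the lines the effect differed by 0.60 on day 1, which was not called (adjusted p 0.278), and by 1.29 on day 2 (SE 0.21, adjusted p 0.000312).

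On day 3 the CASP8AP2 arrays lay above control for IL1A and the NPAT and HINFP arrays below it. In U2OS cells its arrays were at 7.79 and 7.31 with control, 8.10 and 8.00 with CASP8AP2, 6.96 and 6.93 with NPAT and 6.44 and 6.91 with HINFP siRNA. In hTERT-RPE1 cells they were at 5.49 and 5.72 with control, 5.91 and 5.95 with CASP8AP2, 5.34 and 4.84 with NPAT and 4.72 and 4.91 with HINFP siRNA. In both lines the CASP8AP2 arrays were the highest and the HINFP mean the lowest. The falls with HINFP siRNA were called, at -0.88 in U2OS cells (SE 0.19, adjusted p 0.0115) and -0.79 in hTERT-RPE1 cells (adjusted p 0.038), and the differences of 0.50 and 0.33 with CASP8AP2 siRNA were not (adjusted p 0.0883 and 0.386), the first of them being called without control replicate 1 (0.75, adjusted p 0.0445). With NPAT siRNA the U2OS difference was -0.60 (adjusted p 0.0742), called without control replicate 2 (-0.85, adjusted p 0.0486), and the hTERT-RPE1 difference was -0.52 (adjusted p 0.148). The HINFP call in U2OS cells was lost without control replicate 1 (-0.63) or HINFP replicate 1 (-0.64). In hTERT-RPE1 cells the HINFP call was lost without any one of its 4 arrays (differences from -0.91 to -0.67). Set against each other, CASP8AP2 siRNA left more IL1A than NPAT siRNA by 1.11 in U2OS cells (adjusted p 0.00733) and 0.84 in hTERT-RPE1 cells (adjusted p 0.0365), and more than HINFP siRNA by 1.38 (adjusted p 0.00145) and 1.11 (adjusted p 0.00546). Of these 4 values, that between CASP8AP2 and HINFP siRNA in U2OS cells kept its call without each array in turn (adjusted p at most 0.0205). In U2OS cells the NPAT contrast lost its call without CASP8AP2 replicate 1 (adjusted p 0.0775) or NPAT replicate 2 (adjusted p 0.0601). In hTERT-RPE1 cells the NPAT contrast lost it without either CASP8AP2 array or NPAT replicate 2 (0.59 to 0.86, adjusted p 0.141 to 0.265), and the HINFP contrast without CASP8AP2 replicate 2 (1.09, adjusted p 0.0504) or HINFP replicate 1 (1.02, adjusted p 0.058).

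IL1B encodes interleukin-1 beta, a cytokine that is secreted after it is cut by caspase-1. In U2OS cells it was low on every array, and its day 2 arrays were at 3.82, 4.10 and 3.96 with control and 4.70, 4.48 and 4.66 with CASP8AP2 siRNA. That is a rise of 0.65 (SE 0.11, adjusted p 0.000147), at the low end, where the lowest 25% of genes lay under 3.83. On day 1 the difference was 0.03 (adjusted p 0.948). The effect on day 2 exceeded that on day 1 by 0.62 (adjusted p 0.0192), a call lost without control day 1 replicate 2 (0.52, adjusted p 0.0585), control day 2 replicate 1 (0.55, adjusted p 0.057) or CASP8AP2 day 2 replicate 1 (0.58, adjusted p 0.0519). In hTERT-RPE1 cells the day 1 and 2 differences were 0.05 and 0.23, neither called.

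In hTERT-RPE1 cells on day 3 IL1B stood at 8.39 and 8.71 with control and 8.55 and 8.70 with CASP8AP2 siRNA. With NPAT siRNA it was at 7.55 and 7.60 and with HINFP siRNA at 7.65 and 7.31. The last 4 arrays lay below all others, and IL1B fell to 51% of control with NPAT siRNA (-0.97, SE 0.13, adjusted p 0.00102) and to 47.5% with HINFP siRNA (-1.07, SE 0.13, adjusted p 0.000753). Both calls held without each array in turn, and the HINFP call was lost when its own 4 arrays were fitted alone (adjusted p 0.076). CASP8AP2 siRNA left more IL1B than NPAT siRNA by 1.04 (adjusted p 0.000571) and than HINFP siRNA by 1.14 (adjusted p 0.000177).

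IL1B in U2OS cells on day 3 was at 4.31 and 4.47 with control, 4.70 and 4.80 with CASP8AP2, 4.14 and 4.10 with NPAT and 4.27 and 4.30 with HINFP siRNA. None of its differences from control was called (0.36, -0.27 and -0.10). The HINFP effect was higher in U2OS than in hTERT-RPE1 cells by 0.97 (SE 0.18, adjusted p 0.011) and the NPAT effect by 0.70 (SE 0.18, adjusted p 0.0495). The HINFP value lost its call without U2OS control replicate 1 (0.89, adjusted p 0.0583) or hTERT-RPE1 HINFP replicate 2 (0.80, adjusted p 0.051), and when its own 8 arrays were fitted alone (adjusted p 0.0644). The NPAT value is at the threshold and was called without 1 of its 8 arrays, hTERT-RPE1 control replicate 1, and not without any other (adjusted p 0.076 to 0.179). CASP8AP2 siRNA in U2OS cells also left more IL1B than NPAT siRNA (0.63, adjusted p 0.016) and HINFP siRNA (0.46, adjusted p 0.0495), and each of these lost its call without any one of its 4 arrays (adjusted p 0.0571 to 0.167).

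**Figure D3:**
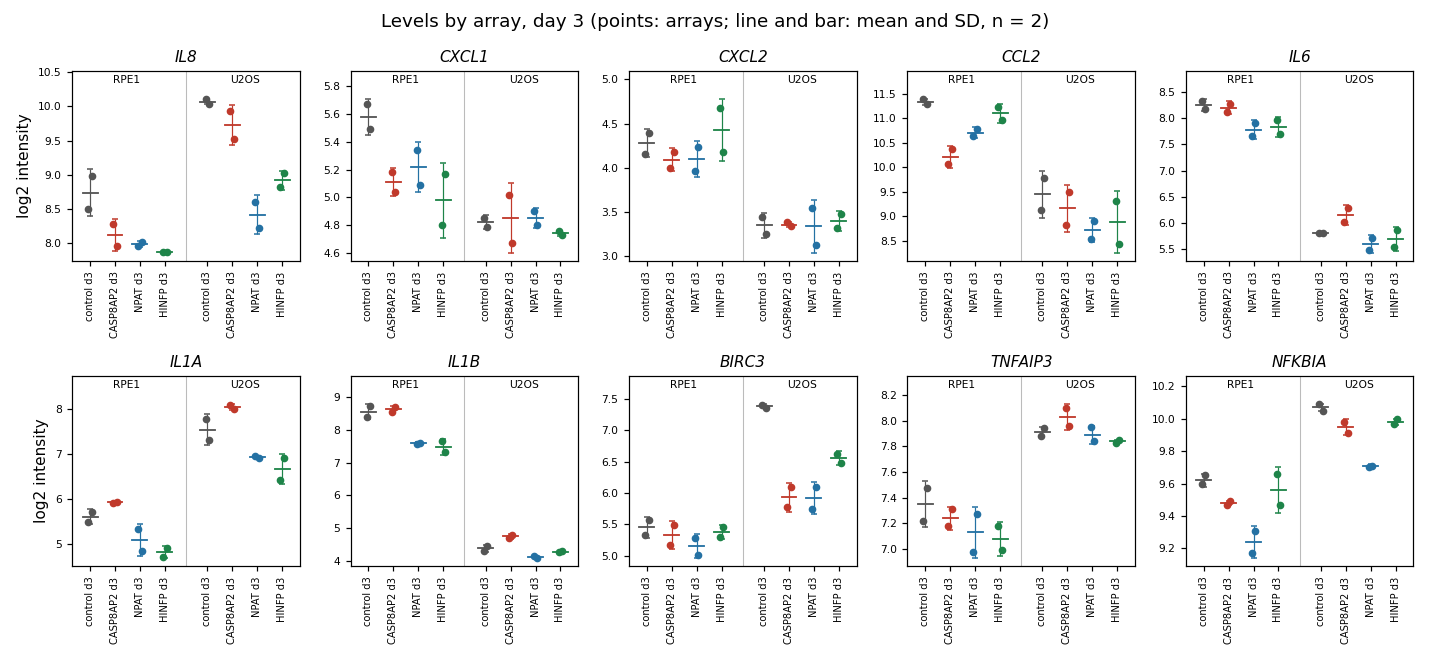
Log2 intensity of each member on day 3 (vertical axis, its own scale in each panel) by line and siRNA; points are arrays, and the line and bar are the mean and SD of 2 arrays. BIRC3 sits at 7.36 and 7.41 with control siRNA in U2OS cells and at 5.74 to 6.63 with each of the other siRNAs, and in hTERT-RPE1 cells its 8 arrays lie between 5.01 and 5.57.

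BIRC3 encodes cIAP2, an inhibitor of apoptosis that acts in signaling from tumor necrosis factor receptors. It was called in 4 comparisons, all in U2OS cells and all lower. On day 2 the U2OS control arrays were at 6.88, 6.64 and 6.70 and the CASP8AP2 arrays at 6.49, 6.30 and 6.27. The groups did not overlap, and BIRC3 fell by 0.38 on the log2 scale (SE 0.09, adjusted p 0.00244), after a difference of -0.12 on day 1 (adjusted p 0.551). This effect was lower than that in hTERT-RPE1 cells by -0.40, which missed the threshold (adjusted p 0.051) and passed it without U2OS CASP8AP2 replicate 1 (-0.46, adjusted p 0.0278), U2OS control replicate 2 (-0.44, adjusted p 0.0439) or hTERT-RPE1 control replicate 1 (-0.44, adjusted p 0.0379). On day 3 the control arrays were at 7.41 and 7.36, against 5.77 and 6.10 with CASP8AP2, 5.74 and 6.10 with NPAT and 6.63 and 6.48 with HINFP siRNA. All 6 treated arrays lay below both controls. The level was 36.6% of control with CASP8AP2 siRNA (-1.45, SE 0.16, adjusted p 7.31e-05), 36.3% with NPAT siRNA (-1.46, SE 0.16, adjusted p 0.000148) and 56.2% with HINFP siRNA (-0.83, SE 0.16, adjusted p 0.00533). The HINFP call was lost without HINFP replicate 2 (-0.75, adjusted p 0.0591).

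BIRC3 in hTERT-RPE1 cells on day 3 was at 5.33 and 5.57 with control, 5.17 and 5.49 with CASP8AP2, 5.28 and 5.01 with NPAT and 5.30 and 5.46 with HINFP siRNA. The differences of -0.12, -0.30 and -0.07 were not called. The effect in U2OS minus that in hTERT-RPE1 cells was -1.33 with CASP8AP2 siRNA (SE 0.22, 95% interval -1.81 to -0.84, adjusted p 0.00371) and -1.16 with NPAT siRNA (SE 0.22, adjusted p 0.0172), and it was not called with HINFP siRNA (-0.76, adjusted p 0.0898). The CASP8AP2 value was called under every alternative, with adjusted p from 1.09e-05 to 0.0197. The NPAT value lost its call without hTERT-RPE1 NPAT replicate 1 (-1.02, adjusted p 0.082), U2OS control replicate 1 (-1.13, adjusted p 0.069) or U2OS NPAT replicate 1 (-0.98, adjusted p 0.0644). In U2OS cells BIRC3 was lower with CASP8AP2 than with HINFP siRNA by a log2 difference of -0.62 (adjusted p 0.0379) and with NPAT than with HINFP siRNA by -0.63 (adjusted p 0.0416). The first lost its call without CASP8AP2 replicate 1 (-0.45, adjusted p 0.309) or either HINFP array (adjusted p 0.103 and 0.176), and the second without any one of its 4 arrays (adjusted p 0.0517 to 0.307). CASP8AP2 and NPAT siRNA differed by 0.01 (95% interval -0.33 to 0.35).

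TNFAIP3 encodes A20, which edits ubiquitin chains and turns NF-kB signaling off. Its rises were small and rested on a narrow spread. In U2OS cells on day 2 it was at 8.18, 8.20 and 8.17 with control and 8.63, 8.69 and 8.61 with CASP8AP2 siRNA, and in hTERT-RPE1 cells it was at 6.89, 6.97 and 6.94 and at 7.37, 7.35 and 7.47. The rises were 0.46 (SE 0.06, adjusted p 6.66e-06) and 0.47 (SE 0.06, adjusted p 3.46e-05), and the lines differed by -0.00 (95% interval -0.18 to 0.18). On day 1 U2OS arrays were at 8.63, 8.75 and 8.63 with control and 8.90, 8.94 and 8.86 with CASP8AP2 siRNA, a rise of 0.23 (adjusted p 0.0282) that lost its call without control replicate 1 or 3 or CASP8AP2 replicate 1 or 2 (adjusted p 0.081 to 0.115). On day 3 no difference from control was called in either line, the values being between -0.27 and 0.12.

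NFKBIA encodes IkB-alpha, the inhibitor that NF-kB itself induces. It was called with NPAT siRNA in both lines and with no other siRNA. In U2OS cells on day 3 it was at 10.09 and 10.05 with control and 9.70 and 9.71 with NPAT siRNA, and in hTERT-RPE1 cells at 9.60 and 9.65 and at 9.17 and 9.31. The groups did not overlap, with falls of 0.37 (SE 0.09, adjusted p 0.0213) and 0.39 (SE 0.09, adjusted p 0.0222) on the log2 scale. The U2OS call was lost without any one of its 4 arrays (adjusted p 0.0797 to 0.14) and after cyclic loess (-0.28, adjusted p 0.0798), and the hTERT-RPE1 call without control replicate 2 (-0.36, adjusted p 0.0863) or NPAT replicate 1 (-0.32, adjusted p 0.199). CASP8AP2 siRNA gave NFKBIA differences between -0.19 and -0.06 over the 3 days in both lines, none called.

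The difference in effect between the lines, of which U2OS kept less of the targeted transcripts, was called for few members. For CASP8AP2 siRNA it was 0 on day 1 (0.689% of all genes), where IL8, CXCL1 and IL1A had an unadjusted p under 0.05, 2 on day 2 (IL6 and IL1A, 9.39%) and 1 on day 3 (BIRC3, 9.55%). It was 2 for NPAT siRNA (IL1B and BIRC3, 3.46%) and 1 for HINFP siRNA (IL1B, 3.15%). Between day 1 and day 2 the effect of CASP8AP2 siRNA changed for 3 members in U2OS cells (IL6, IL1A and IL1B, 7.04%) and for 0 in hTERT-RPE1 cells (0.652%), where IL6 and TNFAIP3 had an unadjusted p under 0.05. Between siRNAs on day 3, 2 members of hTERT-RPE1 cells (2.38%) and 3 of U2OS cells (3.5%) differed between CASP8AP2 and NPAT siRNA, and CASP8AP2 and HINFP siRNA for 2 (3.81%) and 4 (5.6%). NPAT and HINFP siRNA differed for 0 in hTERT-RPE1 cells (3.63%), where NFKBIA had an unadjusted p under 0.05, and for 1 in U2OS cells (4.04%). All these shares are of genes at an adjusted p under 0.05, and the shares at an unadjusted p under 0.05 were not counted.

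With control siRNA the lines themselves differed in most members. U2OS and hTERT-RPE1 cells differed in 9 of 10 members on day 1 (48.7% of all genes were called) and in 10 of 10 on day 2 (50.8%) and on day 3 (43.8%). Lower in U2OS cells on all days were IL1B (log2 differences -4.25, -3.05 and -4.16 on days 1 to 3), IL6 (-2.43, -1.33 and -2.45), CCL2 (-0.62, -1.29 and -1.89), CXCL1 (-0.58, -0.32 and -0.77) and CXCL2 (-0.51, -0.51 and -0.93). Higher were IL1A (2.49, 2.66 and 1.94), BIRC3 (1.58, 1.02 and 1.93), TNFAIP3 (1.31, 1.25 and 0.56) and NFKBIA (0.52, 0.44 and 0.45). IL8 differed by 0.22 on day 1 (adjusted p 0.154, and 0.0321 without U2OS control replicate 1) and was higher in U2OS cells on day 2 (1.83, adjusted p 2.13e-11) and day 3 (1.33, adjusted p 3.54e-05). IL1A and IL1B, which lie in one gene cluster, stood on opposite sides.

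**Figure D4:**
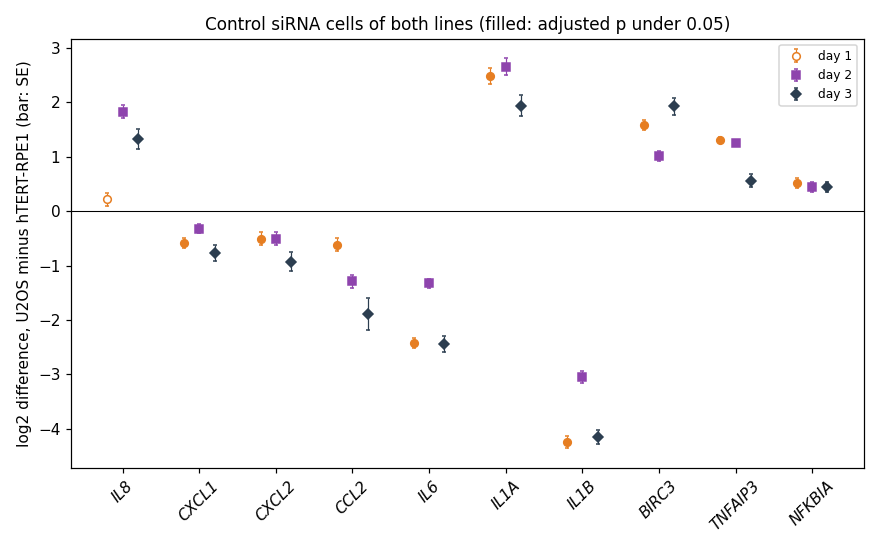
Log2 difference between control U2OS and control hTERT-RPE1 cells (vertical axis, bars are SE) for each member on days 1, 2 and 3; filled markers have an adjusted p under 0.05. Values above 0 are higher in U2OS cells, as for IL1A (2.49 on day 1), and IL1B reaches -4.25.

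The levels across groups can be put in order for the members that moved most. On days 1 and 2 IL8 was highest in U2OS cells with CASP8AP2 siRNA on day 2 (9.82 ± 0.05, SD, n = 3), then in control U2OS cells on day 2 (9.38 ± 0.18), in U2OS cells with CASP8AP2 siRNA on day 1 (8.98 ± 0.03) and in control U2OS cells on day 1 (8.53 ± 0.23), and each of the first 3 lay apart from the next. The arrays of the last of these overlapped those of both hTERT-RPE1 groups of day 1, and the hTERT-RPE1 groups of day 2 were the lowest and overlapped each other. For BIRC3 on day 3 the order was control U2OS (7.39 ± 0.03, SD, n = 2), HINFP siRNA in U2OS (6.56 ± 0.11), and CASP8AP2 (5.93 ± 0.23) and NPAT siRNA (5.92 ± 0.25) in U2OS, which overlapped, above all 4 hTERT-RPE1 groups, in which each group overlapped its neighbour in the order (control, HINFP, CASP8AP2, NPAT siRNA). For IL1A on day 3 the 4 U2OS groups lay above the 4 hTERT-RPE1 groups, and neighbours in the order lay apart except NPAT and HINFP siRNA in hTERT-RPE1 cells, the gap between these siRNAs in U2OS cells being from 6.91 to 6.93.

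Markers of other cells were followed beside these results. Of 7 leukocyte markers, CD14, CD3E and CSF1R could be matched. The summed level of these 3 in U2OS cells on day 2 was between 5.46 and 5.57 with control and between 5.70 and 5.81 with CASP8AP2 siRNA, where CSF1R rose (4.68 ± 0.14 to 5.13 ± 0.04, SD, n = 3) and the other 2 were not called. On day 3 in U2OS cells the sum was between 5.21 and 5.25 with control and between 5.60 and 5.68 with CASP8AP2 siRNA, where CSF1R and CD14 rose. In hTERT-RPE1 cells with CASP8AP2 siRNA CSF1R rose on days 2 and 3, with sums between 6.14 and 6.49 in control and 6.74 and 6.82 in treated cells on day 2, and between 5.99 and 6.05 and 6.32 and 6.39 on day 3, and in U2OS cells with NPAT siRNA it rose too (sums between 5.21 and 5.25 in control and 5.58 and 5.65 in treated cells). CD3E, which defines T cells, lay between 2.98 and 3.43 over all 40 arrays, below the level under which the lowest 25% of genes fell. With control siRNA CSF1R was called lower in U2OS than in hTERT-RPE1 cells on every day, and CD14 and CD3E were not called. The samples were cultures of these lines, and the part of such cells in the results was not tested.

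The wider pathway was read through 107 listed genes other than the members, 32 of which could be matched to a symbol, the rest not being analysed here. After CASP8AP2 siRNA 1, 6 and 5 of the 32 were called higher in hTERT-RPE1 cells on days 1, 2 and 3, and 0, 1 and 2 lower, so that 3.12%, 21.9% and 21.9% were called, beside 0.793%, 6.4% and 6.15% of all genes. In U2OS cells 4, 6 and 4 were higher and 1, 2 and 3 lower, or 15.6%, 25% and 21.9%, beside 5.87%, 24.9% and 18.9% of all genes, so the shares on days 2 and 3 were near the background. NPAT siRNA raised 2 and lowered 3 of them in hTERT-RPE1, and it raised 3 and lowered 1 in U2OS. HINFP siRNA raised 2 and lowered 3, and raised 3 and lowered 3. In hTERT-RPE1 cells these made 15.6% for either siRNA (5.04% and 4.15% of all genes), and in U2OS cells 12.5% and 18.8% (8.13% and 9.43%). The medians over the 32 genes lay between -0.04 and 0.04 in all 10 comparisons. Of the 4 matched inhibitor and feedback genes, CYLD, a deubiquitinase that restrains the pathway, was called higher with NPAT siRNA (0.62 in hTERT-RPE1 and 0.45 in U2OS cells), with HINFP siRNA (0.49 and 0.56) and with CASP8AP2 siRNA in U2OS cells on days 2 and 3 (0.71 and 0.42). NFKBIZ, an atypical member of the inhibitor family that acts in the nucleus, was called lower with NPAT siRNA in both lines (-0.56 in each), with HINFP siRNA in U2OS cells (-0.48) and, in hTERT-RPE1 cells on day 3, with CASP8AP2 siRNA (-0.65). TAX1BP1, a partner of A20, was called higher with HINFP siRNA in hTERT-RPE1 cells (0.38), and NFKBIE was called in 0 of the 10 comparisons.

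A log2 difference of 1 or more was reached by PTGS2, C3 and IL6R. PTGS2 encodes cyclooxygenase-2, which starts the synthesis of prostaglandins. On day 2 U2OS cells had it at 6.56, 6.38 and 6.61 with control and 7.53, 7.60 and 7.50 with CASP8AP2 siRNA. The groups did not overlap, and the rise was 1.03 (SE 0.10, adjusted p 1.63e-07), against 0.17 in hTERT-RPE1 cells (adjusted p 0.438), a line difference of 0.86 (adjusted p 0.000467). It had risen by 0.63 in U2OS cells on day 1 (adjusted p 0.00047) and was higher by 0.37 on day 3 (adjusted p 0.0475). On day 3 PTGS2 in hTERT-RPE1 cells was lower with CASP8AP2 (-0.61), NPAT (-0.75) and HINFP siRNA (-0.89), all called, and in U2OS cells it was lower with HINFP siRNA (-0.57, adjusted p 0.00986).

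C3 encodes a central protein of the complement system. In hTERT-RPE1 cells on day 3 it was at 4.80 and 5.03 with control and 7.29 and 7.47 with CASP8AP2 siRNA. The groups were far apart, a rise of 2.47 (SE 0.29, adjusted p 0.000172). The U2OS arrays of day 3 with CASP8AP2 siRNA were at 5.41 and 6.15 against 5.66 and 5.99, and the effect differed between the lines by -2.51 (adjusted p 0.00301). On day 2 C3 rose by 0.67 in hTERT-RPE1 cells and by 0.83 in U2OS cells. IL6R, the receptor subunit that binds IL6, was higher in U2OS cells with each siRNA on day 3, at 6.23 and 6.11 with control, 7.20 and 7.05 with CASP8AP2, 6.60 and 6.75 with NPAT and 7.18 and 7.58 with HINFP siRNA (differences 0.95, 0.50 and 1.21). With CASP8AP2 siRNA IL6R was also called higher in U2OS cells on days 1 and 2 and in hTERT-RPE1 cells on days 2 and 3. In hTERT-RPE1 cells it was not called on day 1 or with NPAT or HINFP siRNA.

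The members did not share a single pattern. Over the 16 group means, each gene centred within its line and array set, the 45 pairs of members had Pearson r between -0.48 and 0.75 with a median of 0.19. The highest were IL6 with IL1B (0.75), IL6 with IL1A (0.74) and IL8 with IL6 (0.72), and BIRC3 with NFKBIA was at 0.68. The groups share arrays and cells, so these values describe the 16 means and carry no test. IL8 had the most calls, and among 1859 genes with a symbol those most like it over the same means were FKBP14 (0.884), SUOX (0.833) and CYP8B1 (0.778).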

How the data were processed

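RNA of 40 samples was hybridized to Affymetrix Human WT arrays, 3 per group on days 1 and 2 and 2 per group on day 3. The authors read the CEL files into affy (Bioconductor), grouped the probes into 1 set per Ensembl gene, and deposited log2 values for 22069 genes. RMA is named in the submitters' processing notes, and the version and build of the probe grouping are not given in the sources used here.

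Groups were taken from the labels. The deposited log2 values were tested without further normalization in R 4.3.3 with limma 3.58.1 (lmFit, eBayes), with 1 fit of 8 groups for days 1 and 2 (16 residual degrees of freedom) and 1 for day 3 (8). P-values were two-sided and adjusted by Benjamini-Hochberg over all 22069 genes. The 26 comparisons were siRNA against control (10), differences of effect between lines (5) and days (2), control lines (3) and siRNA against siRNA (6). On simulated data for CASP8AP2 siRNA in U2OS cells, 22069 genes with 200 changed, 103 of 107 genes changed by 1 and 93 of 93 changed by 1.5 were recovered on day 2 with 13 false calls, and 94 of 99 and 99 of 101 on day 3 with 6. Changes smaller than 1, such as that of TNFAIP3 on day 2 (0.46), were not simulated. The simulated data also had far fewer changed genes than the 24.9% called in the real day 2 comparison.

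The members and gene lists were chosen with earlier results of these data known. All members were named, and of the pathway list the genes called against control with an absolute log2 difference of at least 1. Symbols came from a gene list of the study's siRNA screen, used in part, which named 1860 genes (8.43%). The authors' array comparisons were not used. The number of arrays limits the precision. A marker of the list is not reported here.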

Additional observations from a re-analysis of the deposited data

Results flagged for a closer look

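For 9 member values the effect of an siRNA differed between the lines or the days by the test of the difference itself. Between the lines (effect in U2OS minus effect in hTERT-RPE1 cells), CASP8AP2 siRNA gave 0.91 for IL6 and 1.29 for IL1A on day 2 and -1.33 for BIRC3 on day 3, NPAT siRNA gave 0.70 for IL1B and -1.16 for BIRC3, and HINFP siRNA gave 0.97 for IL1B. Between day 2 and day 1 the effect of CASP8AP2 siRNA in U2OS cells differed by 1.22 for IL6, 0.88 for IL1A and 0.62 for IL1B. Closest to the threshold was IL1B with NPAT siRNA (adjusted p 0.0495). IL1B in U2OS cells lay at the low end of the intensities. With 2 or 3 arrays in a group, no array was checked as an outlier against the rest of its group, but each was left out in turn. The line differences of IL1B and BIRC3 with NPAT siRNA and of IL1B with HINFP siRNA lost their call without some single arrays. So did the day difference of IL1B.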

How the results depend on the processing

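Of the 26 calls against control, 12 held under every alternative, 14 were lost under at least 1 and 0 reversed, and 7 values that were not called passed in at least 1. Day 3 has 2 arrays per group, and CXCL2 and IL1B lay at the low end of the intensities in U2OS cells. Leaving arrays out or fitting the compared groups alone means fewer arrays in the fit, and the cause of the other changes was not tested.

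With the arrays of the compared groups alone, the members called were 1 for CASP8AP2 knockdown in hTERT-RPE1 (day 2), 1 for NPAT and 0 for HINFP siRNA in hTERT-RPE1 cells, 1 for CASP8AP2 knockdown in U2OS (day 1), 1 and 0 for the NPAT and HINFP effects between lines, 1 for CASP8AP2 minus NPAT siRNA in each line, and in U2OS cells 1 for CASP8AP2 minus HINFP and 0 for NPAT minus HINFP siRNA. With all 40 arrays in 1 fit they were 1 and 3 for CASP8AP2 knockdown in hTERT-RPE1 (days 2 and 3), 5 for NPAT siRNA in U2OS cells, 2 each for the CASP8AP2 effect on day 3 and the HINFP effect between lines, and 1 for NPAT minus HINFP siRNA in hTERT-RPE1 cells. Centred on array medians they were 1 for CASP8AP2 knockdown in hTERT-RPE1 (day 2), 1 for the NPAT effect between lines and 1 for NPAT minus HINFP siRNA in hTERT-RPE1 cells. Cyclic loess gave 1 for the NPAT effect between lines, and without the lowest 25% of genes NPAT minus HINFP siRNA in hTERT-RPE1 cells gave 1. Listed here are the counts that moved by over 1.5 times or to or from 0, so an unlisted comparison could still lose or gain a call. In U2OS cells the compared arrays alone lost NFKBIA with NPAT siRNA (adjusted p 0.0518) and IL1A with HINFP siRNA (0.0784), for example. TNFAIP3 with CASP8AP2 siRNA in U2OS cells on day 1 was lost with all 40 arrays (0.0779) and with median centring (0.0602). Median centring moved all genes by over 0.1 only in the control lines (-0.12 on day 1 and -0.16 on day 2).

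Without each array in turn, the members called in hTERT-RPE1 cells were 0 to 0, 1 to 2 and 0 to 1 for CASP8AP2 siRNA on days 1 to 3, 1 to 3 for NPAT and 1 to 2 for HINFP siRNA. In U2OS cells they were 1 to 3, 5 to 6 and 1 to 2, then 2 to 3 and 2 to 3. Between lines they were 0 to 0, 2 to 3 and 1 to 2 for CASP8AP2, 0 to 2 for NPAT and 0 to 1 for HINFP siRNA. Between days they were 0 to 1 in hTERT-RPE1 and 2 to 3 in U2OS cells, and between control lines 9 to 10, 10 to 10 and 10 to 10. For CASP8AP2 minus NPAT, CASP8AP2 minus HINFP and NPAT minus HINFP siRNA they were 1 to 2, 1 to 2 and 0 to 1 in hTERT-RPE1 cells, and 1 to 2, 1 to 3 and 0 to 0 in U2OS cells.

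Same-numbered arrays deviated together (r above 0.1) in 0 of 12 pairs of groups on days 1 and 2 (r from -0.10 to 0.07) and in 4 of 12 on day 3 (r from -0.12 to 0.21). Those of day 3 were control with CASP8AP2 siRNA in hTERT-RPE1 cells (0.21) and, in U2OS cells, control with CASP8AP2 (0.14), control with NPAT (0.14) and CASP8AP2 with NPAT siRNA (0.17). The main fits did not take the numbers as pairs, and a fit with the replicate number as a block was run beside them. Why these arrays deviated together was not tested. With the replicate block the NPAT effect between lines kept 1 member called, and over 260 member values 2 calls were lost (IL1B in that comparison, adjusted p 0.0525, and for CASP8AP2 minus HINFP siRNA in U2OS cells, adjusted p 0.0519) and 2 gained (BIRC3 for the CASP8AP2 effect between lines on day 2, adjusted p 0.0452, and IL6 for CASP8AP2 minus NPAT siRNA in U2OS cells, adjusted p 0.0498).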
